A study of Rattus norvegicus with 9 samples.

Results

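Id1, Id2, Id3 and Id4 encode the inhibitors of DNA binding, a family of helix-loop-helix proteins, and their expression was measured in the prefrontal cortex of 9 rats. The members were all probe sets whose only gene symbol in the platform annotation was 1 of these 4 names. The rule found 6 probe sets of 15866, belonging to 4 of the 10411 genes with a probe set of their own. Id1 had the probe set 1387028_a_at and Id3 had 1387769_a_at. Id2 had 2, here called its first, 1375532_at, and second, 1368870_at, and Id4 likewise had 1375120_at and 1375183_at. The family was selected on measured values: the relations of Id2 with startle and of Id3 with the plus maze in these 9 rats were known, and both are given as descriptions.

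The rats were untreated males of Lewis, an inbred strain, weighing 200 to 250 g, and they form 1 group of 9 animals that belongs to a cohort of 20 tested rats. The labels give no age. Prefrontal cortex, here the Fr1 and Fr2 areas more than 4.0 mm in front of Bregma with the olfactory bulb removed, was taken 12 days after the last behavioural test. Total RNA of each rat went onto 1 Affymetrix rat array, so the spread between rats also holds technical differences between arrays. The values are log2 expression. The labels give startle, locomotion, plus maze and sugar feeding values without units.

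Basic helix-loop-helix (bHLH) factors bind DNA as dimers, in which a broadly expressed E protein usually pairs with a tissue-restricted partner. Id proteins have the dimerisation surface but lack the basic region that touches DNA, so an E protein held by an Id protein cannot bind its E-box. Bone morphogenetic proteins (BMPs) are classical inducers of Id genes, through type I and type II receptors and the Smad proteins 1, 5 and 9. In the adult brain Id1 and Id3 are known from blood vessels and glia, Id2 also from neurons, and Id4 from glial and progenitor cells.

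The bases upstream of the starts of Id1, Id2 and Id3 show the regulatory stretch of the members that passed the filter on low values. Each sequence is from RefSeq on GRCr8, runs 5′ to 3′ on the gene's strand over 210 bases, from 250 to 41 bases before the start, and has motif matches in capitals. The Id1 window lies at chr3:161671314-161671523 (plus strand), that of Id2 at chr6:47471036-47471245 (minus strand) and that of Id3 at chr5:153656041-153656250 (plus strand).
Id1: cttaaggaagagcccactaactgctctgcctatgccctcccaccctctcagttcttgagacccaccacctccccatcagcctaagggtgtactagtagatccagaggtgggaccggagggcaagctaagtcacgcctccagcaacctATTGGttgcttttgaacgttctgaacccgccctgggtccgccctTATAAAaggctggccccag
Id2: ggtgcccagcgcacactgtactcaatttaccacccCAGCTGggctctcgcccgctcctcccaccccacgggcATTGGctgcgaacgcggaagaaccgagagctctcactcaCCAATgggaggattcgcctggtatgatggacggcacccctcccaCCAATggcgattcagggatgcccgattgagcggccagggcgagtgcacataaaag
Id3: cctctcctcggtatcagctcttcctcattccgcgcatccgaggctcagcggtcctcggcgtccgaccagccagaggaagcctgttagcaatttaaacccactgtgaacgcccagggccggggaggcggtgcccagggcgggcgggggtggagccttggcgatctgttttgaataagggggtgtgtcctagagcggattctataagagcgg

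The motifs searched on both strands were the TATA box TATAAA, the CCAAT box, the E-box CANNTG, the GC-rich Smad element GGCGCC and the cyclic AMP response element TGACGTCA. The capitals in Id1 are 1 TATAAA, whose first base lies 59 bases before the start, and 1 CCAAT on the reverse strand, read as ATTGG. Those in Id2 are 1 E-box, CAGCTG, and 3 CCAAT matches, of which 2 lie on the forward strand. The Id3 window held none of the 5 motifs, and neither the Smad element nor the cyclic AMP response element was in any of the 3 windows. Of 33465 upstream windows of the same length, 10.5% held the TATA box, 30.1% the CCAAT box, 59.6% an E-box, 7.00% the Smad element and 1.09% the cyclic AMP response element.

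The arrays had median log2 values of 4.11 to 4.28, and any 2 arrays correlated at 0.988 to 0.998. A filter that removed the lowest 40% of probe sets by mean, those under a mean log2 of 3.22, kept 9520, and 4 of the 6 Id probe sets were among them. The 2 probe sets of Id4 were under the filter. The labelled tissue was checked against 9 frontal cortex projection neuron genes, of which 4 had a probe set and 3 were kept. Slc17a7, the vesicular glutamate transporter, lay at 11.19 to 12.11, Camk2a at 9.65 to 12.06 and Cux2 at 6.52 to 7.05. Tbr1 was under the filter. Of 9 olfactory bulb and striatal markers 2 were kept, Cdhr1 at 2.94 to 3.44 and Ppp1r1b at 7.36 to 8.20, with Drd1 and Drd2 under the filter. How closely the pieces matched the labelled areas was not tested. Rats 8 and 9 differed from the rest in many genes, and in 26.9% of the 9520 probe sets both of their values were above or both below all other 7. The labels name no batch, and the Id values are therefore given with and without this pair.

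Over all 9 rats Id1 varied most of the members. Its log2 values for rats 1 to 9 were 4.78, 5.31, 5.13, 5.25, 5.62, 5.11, 4.73, 6.79 and 5.84, a mean of 5.40 ± 0.63 (SD, n = 9). Rats 8 and 9 were above the other 7, and rats 1 and 7 were lowest. The span from lowest to highest was 4.16-fold, and the SD was above that of 97.3% of the probe sets kept, whose median SD was 0.19. Among rats 1 to 7 the mean was 5.13 ± 0.31 (SD, n = 7) and the span 1.85-fold. In these rats Id3 had a like SD of 0.31 and a wider span of 1.95-fold. The first Id2 probe set had an SD of 0.29 there. The Id1 mean of rats 8 and 9 was 1.18 log2 units higher than that of the other 7, which is 2.27-fold. Both arrays lay above the others for 9.33% of the probe sets kept, Id1 among them, and for none of the 3 kept probe sets of Id2 and Id3.

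Id2 was measured by 2 probe sets that did not follow each other closely. The platform annotation ties the second to a RefSeq transcript of Id2 and the first to an expressed sequence tag, whose match to Id2 was not checked here. On the first probe set the values for rats 1 to 9 were 10.55, 10.14, 10.46, 10.25, 9.91, 10.50, 9.81, 9.93 and 10.11, a mean of 10.18 ± 0.27 (SD, n = 9). Rats 1, 3 and 6 were highest, rats 5, 7 and 8 lowest, and the span was 1.67-fold. On the second probe set the values were 7.49, 7.32, 7.23, 6.95, 7.13, 7.35, 7.36, 7.31 and 7.30, a mean of 7.27 ± 0.16 (SD, n = 9). Rat 1 was highest here too, but rat 4 was lowest, and the span was 1.46-fold. The probe sets correlated at r = 0.190 over the 9 rats and 0.258 over rats 1 to 7. Among 749 genes with exactly 2 probe sets kept, the median r was 0.135, and 53.5% of these genes had a lower r than Id2. Rats 8 and 9 stood apart on neither, with mean differences from the other 7 of -0.21 and 0.04.

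Id3 had values of 7.06, 7.38, 7.10, 7.07, 7.05, 7.74, 6.77, 7.07 and 6.82 for rats 1 to 9, a mean of 7.12 ± 0.29 (SD, n = 9). Rat 6 was highest, followed by rat 2, and rats 7 and 9 were lowest. The span was 1.95-fold. The mean of rats 8 and 9 differed from that of the other 7 by -0.22, inside the range of those rats.

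Id4 was under the filter on both probe sets, and 7 of the 9 rats had nearly the same value on the first. On its first probe set rats 1 to 7 had 2.73, 2.78, 2.83, 2.73, 2.76, 2.81 and 2.80, a range of 0.10, and rats 8 and 9 had 3.75 and 3.57. The pair averaged 0.88 log2 units higher, which is 1.85-fold, and the groups did not overlap. Both arrays lay above the other 7 in 6.32% of all 15866 probe sets. On the second probe set the 9 values lay between 2.85 and 2.96 with rats 8 and 9 at 2.93 and 2.88, so the higher values of the pair appeared on 1 of the 2 Id4 probe sets.

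**Figure D1:**
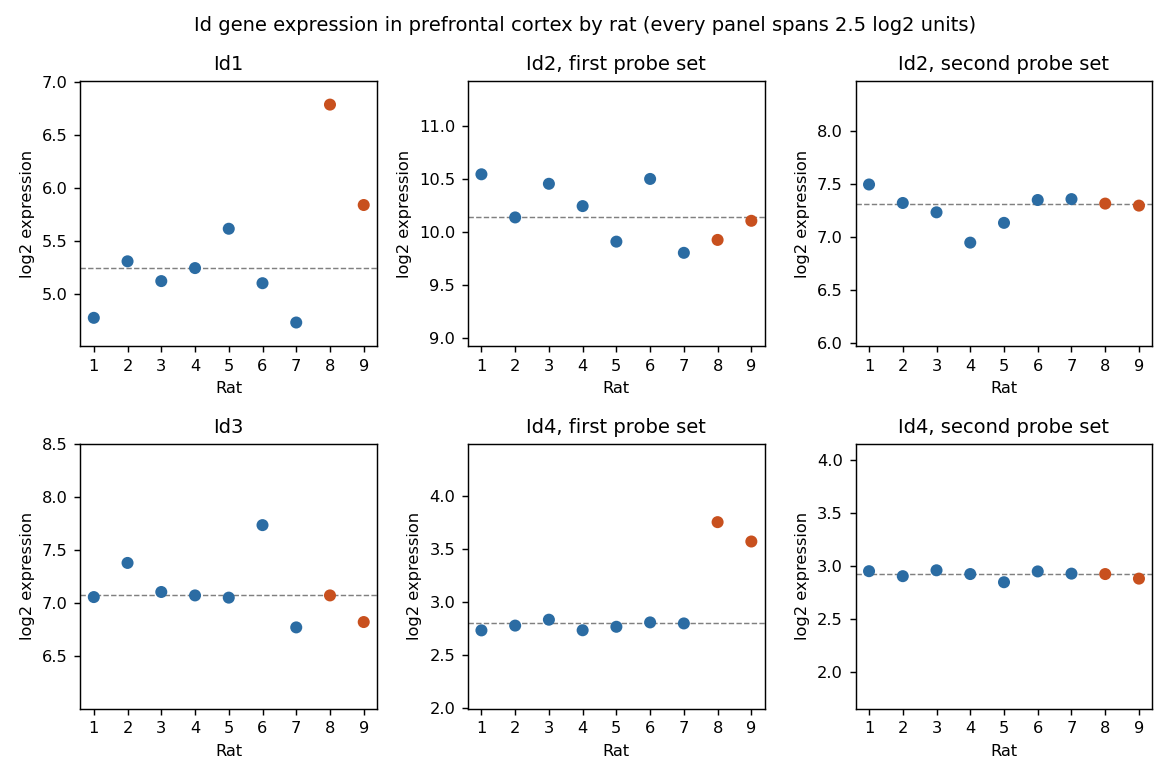
Log2 expression (y axis) of each of the 6 Id probe sets for rats 1 to 9 (x axis). Each point is the array of 1 rat, orange marks rats 8 and 9, and the dashed line is the median of the probe set. Id1 and the first Id4 probe set have rats 8 and 9 above all others, while rat 6 is the high value of Id3 at 7.74.

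Startle was the behaviour beside which Id2 had been chosen, so these values are a description. Rats 1 to 9 had startle values of 458.6, 295.8, 501, 244.7, 175.4, 352.9, 153.7, 67.7 and 230. The 3 rats with the highest startle, 3, 1 and 6, were also the 3 with the highest Id2 on its first probe set, and rats 5, 7 and 8 were the lowest in both. Per SD of startle, Id2 differed by 0.25 ± 0.047 log2 units (SE, n = 9), with r = 0.896 and rho = 0.883. This slope was 0.22 to 0.29 when each rat was left out in turn, and r was 0.898 over rats 1 to 7. On the second Id2 probe set the slope was 0.037 ± 0.056 (SE, n = 9), with r = 0.239, and r was 0.383 over rats 1 to 7 and -0.005 after the 2 rats farthest from the median startle were removed.

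Id1 went the other way over all rats, and its slope leaned on the pair of arrays that stood apart. Per SD of startle, Id1 differed by -0.39 ± 0.17 log2 units (SE, n = 9), with r = -0.619 and rho = -0.450. It was -0.091 without rats 8 and 9, and -0.15 without rat 8 alone. Id3 had a slope of 0.099 ± 0.093 (SE, n = 9) with r = 0.341 and rho = 0.552. Limma called 0% of 9520 probe sets for startle after Benjamini-Hochberg adjustment, and 13.2% had an unadjusted p under 0.05.

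The plus maze, a test of exploration in open arms, was the behaviour beside which Id3 had been chosen. Its values for rats 1 to 9 were 9, 18.7, 0, 3, 2.7, 18.7, 2.3, 5.7 and 0. Rats 2 and 6 tied at the top of the plus maze and had the highest 2 Id3 levels, 7.38 and 7.74. The slope of Id3 was 0.25 ± 0.057 log2 units per SD of the plus maze (SE, n = 9), with r = 0.850 and rho = 0.616. Without rats 2 and 6 the r was 0.350, so the relation rests on these 2 animals. The slope was 0.17 without rat 6 and 0.30 without rat 2.

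The other members had smaller slopes relative to their errors on the plus maze. Id1 had -0.10 ± 0.21 log2 units per SD (SE, n = 9), and Id2 had 0.095 ± 0.089 on the first and 0.059 ± 0.054 on the second probe set. Limma called 0% of 9520 probe sets for the plus maze after adjustment, and 2.99% had an unadjusted p under 0.05.

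**Figure D2:**
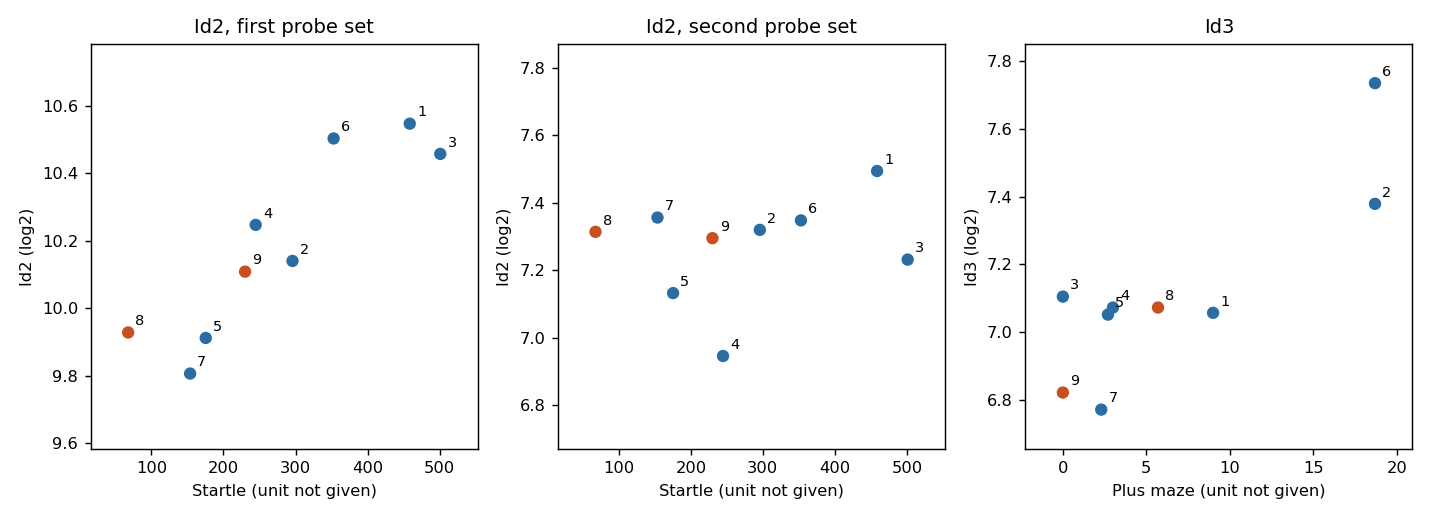
Log2 expression of the Id2 probe sets against startle (no unit given) and of Id3 against the plus maze value (no unit given), with 1 numbered point per rat and rats 8 and 9 in orange. On its first probe set Id2 climbs with startle across the rats (r = 0.896), on the second it does not (r = 0.239), and for Id3 rats 2 and 6 sit apart at a plus maze value of 18.7.

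Locomotion and sugar feeding had no part in the choice of the family, and the members were tested against them. No Id probe set passed the test for either. Rats 1 to 9 had locomotion values of 1102, 787, 536, 805, 706, 634, 635, 946 and 793, and sugar feeding values of 2.4, 1.7, 1.8, 4.7, 1.4, 0.8, 1.3, 3.3 and 2.1. For locomotion the slope of Id1 was 0.16 log2 units per SD (95% interval -0.30 to 0.62). That of Id2 was 0.026 (-0.19 to 0.24) on the first and 0.049 (-0.076 to 0.17) on the second probe set, and that of Id3 was -0.045 (-0.27 to 0.18). The limma adjusted p was 1.00 for each of the 4.

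Sugar feeding, the intake of a sweet food, gave slopes of 0.21 (-0.24 to 0.66) for Id1 and -0.081 (-0.30 to 0.13) for Id3. Those of Id2 were -0.0022 (-0.22 to 0.21) on the first and -0.085 (-0.20 to 0.030) on the second probe set. The limma adjusted p was again 1.00 for each. After adjustment 0% of 9520 probe sets were called for either behaviour, and 1.96% for locomotion and 1.4% for sugar feeding had an unadjusted p under 0.05, none of them of the family. The intervals show the precision that 9 arrays give: they are narrowest for the second Id2 probe set and widest for Id1.

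**Figure D3:**
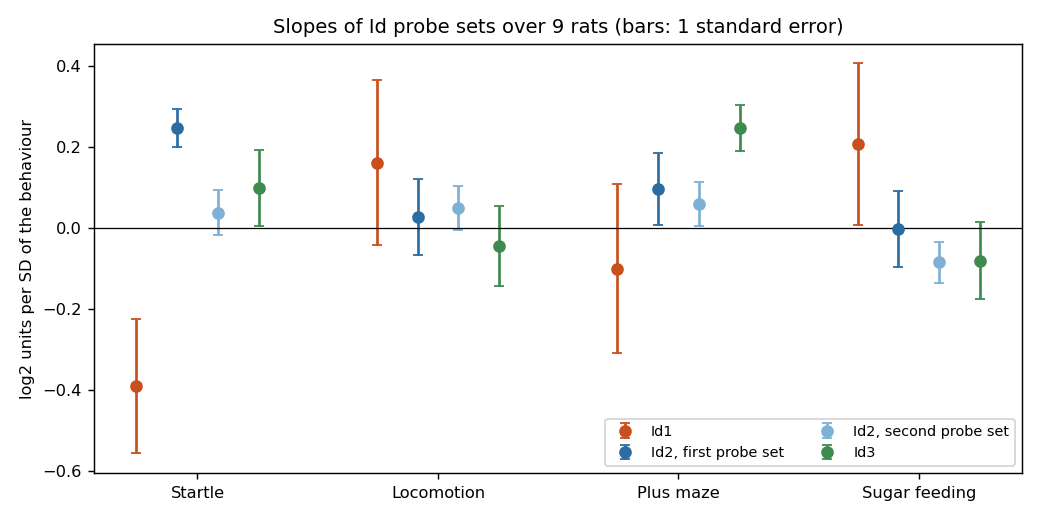
Slopes in log2 units per SD of the behaviour (y axis) for the 4 behaviours (x axis) and the 4 Id probe sets kept (colours), with bars of 1 standard error over 9 rats. Id2 on its first probe set stands above 0 for startle and Id3 for the plus maze, the relations known beforehand, and the Id1 bars are the longest.

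Across rats the members did not move as a block. Of the 6 pairs of genes, Id2 (first probe set) and Id3 had r = 0.536 (exact permutation p = 0.138, adjusted p = 0.415 over 6 pairs) and rho = 0.611 (exact permutation p = 0.087, adjusted p = 0.522). With the 2 rats of most extreme Id2 removed r was 0.411, over rats 1 to 7 it was 0.538, and with the other Id2 probe set it was 0.090. By this r, Id2 ranked 842nd of 9519 probe sets for likeness to Id3, and Id3 1571st for likeness to Id2.

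Id1 with Id2 had r = -0.431 (exact permutation p = 0.253, adjusted p = 0.505) and rho = -0.350 (exact permutation p = 0.359). Over rats 1 to 7, which are also the rats left when the 2 most extreme in Id1 are removed, r was -0.225. Leaving out each rat in turn gave r of -0.802 to -0.270, past the adjusted threshold for 1 of the 9. That was rat 7, the lowest rat of both genes (r = -0.802, exact permutation p = 0.0045, adjusted p = 0.024). With the other Id2 probe set r was -0.155 (exact permutation p = 0.661, adjusted p = 0.803). Id1 with Id3 had r = -0.092 (exact permutation p = 0.803, adjusted p = 0.803) and rho = 0.017 (exact permutation p = 0.973), and over rats 1 to 7 r was 0.270. Id3 ranked 4193rd of 9519 probe sets by r with Id1, and Id1 ranked 7301st by r with Id3.

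Correlations with Id4 over all rats would set 2 arrays against 7, because Id4 varied by only 0.10 among rats 1 to 7. Within those 7 rats r with Id4 was -0.055 for Id1, 0.011 for Id2 and 0.231 for Id3 (adjusted exact permutation p = 0.981, 0.981 and 0.970 over 6 pairs). What Id1 and Id4 shared was the higher value of rats 8 and 9.

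The genes whose levels most resembled those of each Id gene were taken by Pearson r over the 9 rats among 6767 genes. These are descriptions over arrays that also share hybridisation differences. For Id1 the highest r were those of Pitpnm2, 0.962, Evl, an actin regulator of the Ena/VASP family, 0.959, Sbf1, 0.953, and Plpp7 and Phf13, 0.952 each. In rats 1 to 7 they were 0.851, 0.862, 0.808, 0.851 and 0.768. The lowest were Ndfip1, an adaptor of Nedd4 ubiquitin ligases, at -0.973, Nog at -0.964 and Mpc1, a subunit of the mitochondrial pyruvate carrier, at -0.961, and over rats 1 to 7 they were -0.909, -0.941 and -0.856. Of all genes, 1.42% had an r beyond 0.9 in size with Id1 over 9 rats and 0.621% over rats 1 to 7.

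Nog encodes noggin, a secreted antagonist that binds BMPs and keeps them from their receptors. Its values for rats 1 to 9 were 6.89, 6.61, 6.52, 6.59, 6.22, 6.77, 7.10, 5.72 and 6.14. It was lowest in rats 8 and 9, where Id1 was highest, and among the other 7 it was highest in rats 7 and 1, where Id1 was lowest, and lowest in rat 5, where Id1 was highest. Nog was 1 of the 3 genes of lowest r with Id1 and also stood on the list of BMP antagonists. That list was chosen with earlier results of these data known, and both readings rest on the same r, so they are not separate results. With Id2 (first probe set) the r of Nog was 0.337 and with Id3 0.125.

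For Id2 (first probe set) the nearest genes were Mrpl32, a mitochondrial ribosomal protein, at r = 0.906, Prl8a2 at 0.905, Trpc4, a cation channel, at 0.896, Vangl2, a planar cell polarity protein, at 0.893 and Paip1, which binds the poly(A)-binding protein, at 0.883. Without rats 8 and 9 they were 0.896, 0.975, 0.928, 0.960 and 0.904. Prl8a2, Trpc4 and Vangl2 had mean levels of 3.96, 3.42 and 3.57, not far above the filter. When the arrays were quantile normalized again, r was 0.555 for Trpc4 and 0.705 for Vangl2, against 0.950 for Prl8a2. The lowest r were those of Mapre3, which binds growing microtubule ends, -0.899, Adgrb1, an adhesion receptor, -0.888, and Mrpl38, -0.884. Id2 had been chosen beside startle, and these 3 genes had slopes of -0.30, -0.36 and -0.20 log2 units per SD of startle. The 5 nearest genes had slopes of 0.065 to 0.28. The part of startle in this likeness was not tested. The share of genes with an r beyond 0.9 in size was 0.0296% for Id2 over 9 rats and 0.473% over rats 1 to 7.

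For Id3 the nearest genes were Eif6, a factor of ribosome assembly, at r = 0.963, Mccc2, a subunit of a leucine-degrading carboxylase, at 0.942, Vtn at 0.937, Trmt5, a tRNA methyltransferase, at 0.933 and Il6st at 0.932. Over rats 1 to 7, which still hold rats 6 and 2, these were 0.959, 0.964, 0.972, 0.932 and 0.959. With each rat left out in turn, the weakest r of these 5 were 0.954, 0.844, 0.916, 0.828 and 0.914. Vtn encodes vitronectin, in brain a product of pericytes, and had 4.78, 5.06, 4.83, 4.83, 4.84, 5.18, 4.53, 4.94 and 4.73 for rats 1 to 9, with rats 6 and 2 highest and rat 7 lowest as for Id3. Il6st encodes gp130, the signalling receptor of the interleukin 6 family. The lowest r were those of Plekho1, -0.923, Spata2, -0.881, and Atp6v1c1, a proton pump subunit, -0.881. When each rat was left out in turn, the weakest r of these 3 genes were -0.799, -0.631 and -0.643. Each was lowest in rat 6, where Id3 was highest. The share of genes beyond 0.9 in size was 0.118% for Id3 over 9 rats and 0.517% over rats 1 to 7.

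For Id4 (first probe set) the genes of highest r were Pde4a, Fam53b, Nhsl2, Scap and Smad7, with 0.992, 0.987, 0.980, 0.979 and 0.978. Over rats 1 to 7 these fell to 0.309, -0.037, -0.079, 0.668 and 0.687, and 5.96% of genes had an r beyond 0.9 in size over 9 rats against 0.325% over rats 1 to 7. The genes of lowest r were Cadps, -0.996, Vps29, -0.992, and Commd10, -0.990, and over rats 1 to 7 these were -0.897, -0.617 and -0.721.

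**Figure D4:**
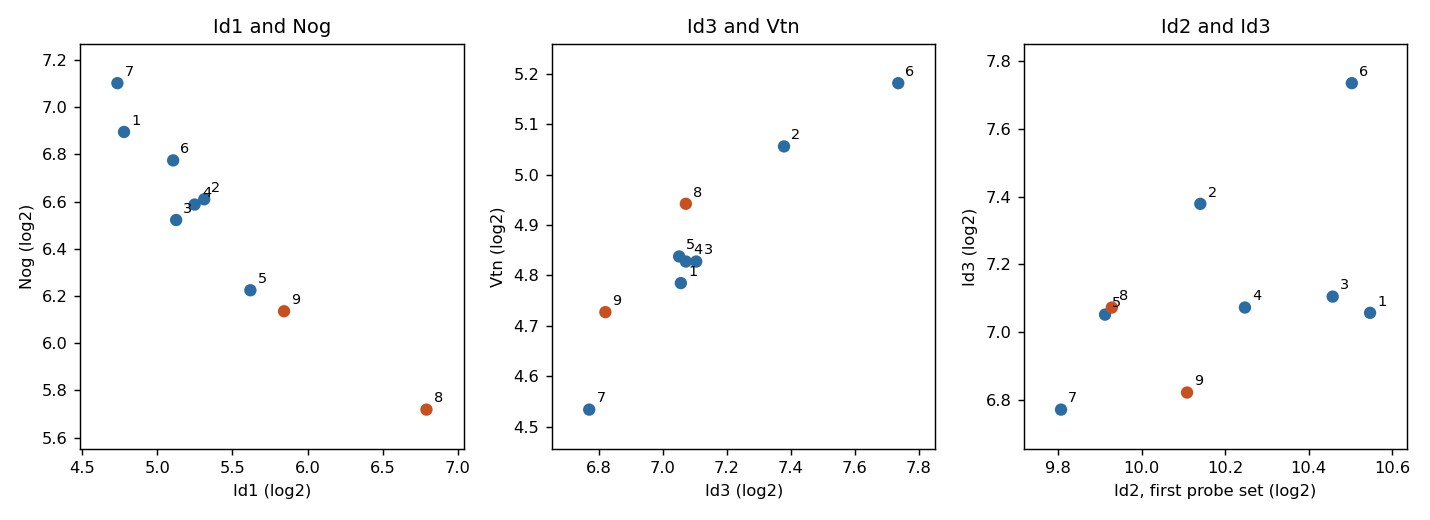
Log2 expression of Nog (y axis) against Id1 (x axis), Vtn against Id3, and Id3 against Id2 (first probe set), with 1 numbered point per rat and rats 8 and 9 in orange. Nog is lower in rats with higher Id1 (r = -0.964 over 9 rats, -0.941 over rats 1 to 7), Id3 and Vtn rise together (r = 0.937), and Id2 and Id3 scatter more widely (r = 0.536).

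The partners and regulators of the Id proteins were described through 8 lists, in which no gene kept passed the adjusted threshold for any behaviour in limma, as no probe set did (0% of 9520). Every r with Id2 in these lists is that of its first probe set. The E proteins, which Id proteins bind directly, had 2 of 3 genes kept. Tcf4 was 9.64, 9.74, 9.35, 9.92, 9.71, 9.92, 9.92, 10.78 and 10.67 for rats 1 to 9, 0.99 log2 units higher in rats 8 and 9. Like Id1 it had that pair above all others, as in 9.33% of the probe sets kept. Its r with Id1 was 0.772 over 9 rats but -0.081 over rats 1 to 7. Tcf12 was lower in the pair by 0.20, and Tcf3 was under the filter. Against startle Tcf4 had a slope of -0.33 ± 0.11 and Tcf12 of 0.080 ± 0.035 log2 units per SD (SE, n = 9), neither past the adjusted threshold.

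Of 17 tissue-restricted bHLH activators, the usual partners of E proteins, 8 had a probe set and 3 were kept. These were Neurod1 and Neurod2, factors of neuronal differentiation, and Olig1, a factor of the oligodendrocyte lineage. Olig1 had r = 0.474 with Id1 over 9 rats and 0.774 over rats 1 to 7. Neurod2 had 0.235 over 9 rats and -0.795 over rats 1 to 7, where it ran only from 3.94 to 4.08. Of the pair, rat 8 was inside that range at 4.06 and rat 9 above it at 4.81. Of 10 bHLH repressors of the Hes, Hey and Bhlhe type, 4 were kept, Hes1, Hes6, Bhlhe40 and Bhlhe41. Over 9 rats 3 of the 4 had a negative r with Id2, with a median of -0.369 against 0.151 over all genes, and Bhlhe41 had 0.083. In rats 1 to 7 all 4 were negative, with a median of -0.350 against 0.057. With Id3 the median was 0.043 over 9 rats and 0.151 over rats 1 to 7, against 0.178 and 0.101 over all genes.

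Of 11 BMP ligands 2 were kept. Bmp6 lay between 4.78 and 6.20, with rats 2 and 6 highest and rat 9 lowest, and had r = 0.662 with Id3 over 9 rats and 0.624 over rats 1 to 7. Gdf11 lay between 6.87 and 7.21 and had 0.284 and 0.271. Bmp2, Bmp4 and Bmp7 were under the filter.

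Among the BMP receptors 3 of 8 were kept, the type II receptors Bmpr2, Acvr2a and Acvr2b. Bmpr2 had 6.49, 5.78, 6.45, 6.31, 6.22, 5.97, 7.23, 8.38 and 8.86 for rats 1 to 9, 2.27 log2 units higher in rats 8 and 9. Acvr2b had 5.30, 5.42, 5.67, 6.30, 6.01, 6.33, 5.36, 7.50 and 7.32, 1.64 higher in the pair. For both genes the pair lay above all other rats, as in 9.33% of the probe sets kept, while Acvr2a differed by 0.06. The r with Id1 over 9 rats was 0.620 for Bmpr2, 0.854 for Acvr2b and -0.172 for Acvr2a. Over rats 1 to 7 it was -0.654, 0.525 and -0.832, so the sign of Bmpr2 turned and the receptors did not share a direction. The type I receptors Bmpr1a and Acvr1 were under the filter.

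The Smads that carry the BMP signal had 3 of 4 genes kept. Smad1, Smad5 and the common partner Smad4 had r of 0.216, 0.336 and 0.706 with Id1 over rats 1 to 7, a median of 0.336 against 0.121 over all genes. Over the 9 rats they were -0.225, 0.435 and -0.320. Of 10 feedback genes and antagonists 4 were kept. Smad7, an inhibitory Smad, was 0.84 log2 units higher in rats 8 and 9 and Nog 0.75 lower, each with both arrays beyond the others. Of the probe sets kept, 9.33% had both arrays above the others and 17.6% had both below. Over 9 rats Id2 had r = -0.449 with Smad7, -0.527 with Smurf1 and -0.442 with Smurf2. Without rats 8 and 9 Id2 had r = -0.607 with Smad7, -0.602 with Smurf1, -0.579 with Smurf2 and 0.059 with Nog. Smurf1 and Smurf2 are ubiquitin ligases that act on BMP signalling. Among rats 1 to 7 Smad7 ran only from 4.46 to 4.63. Smurf1 was highest in rat 5, at 5.87, and Smurf2 in rat 7, at 5.47, the 2 rats of lowest Id2.

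Of 5 cell cycle inhibitors that bHLH factors can induce, 2 were kept. Cdkn1a, which encodes p21, lay between 5.67 and 6.05 and had r = 0.156 with Id2 over 9 rats and 0.606 over rats 1 to 7. Cdkn1b, which encodes p27, was 0.36 log2 units lower in rats 8 and 9, with both arrays below the others, as in 17.6% of the probe sets kept.

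**Figure D5:**
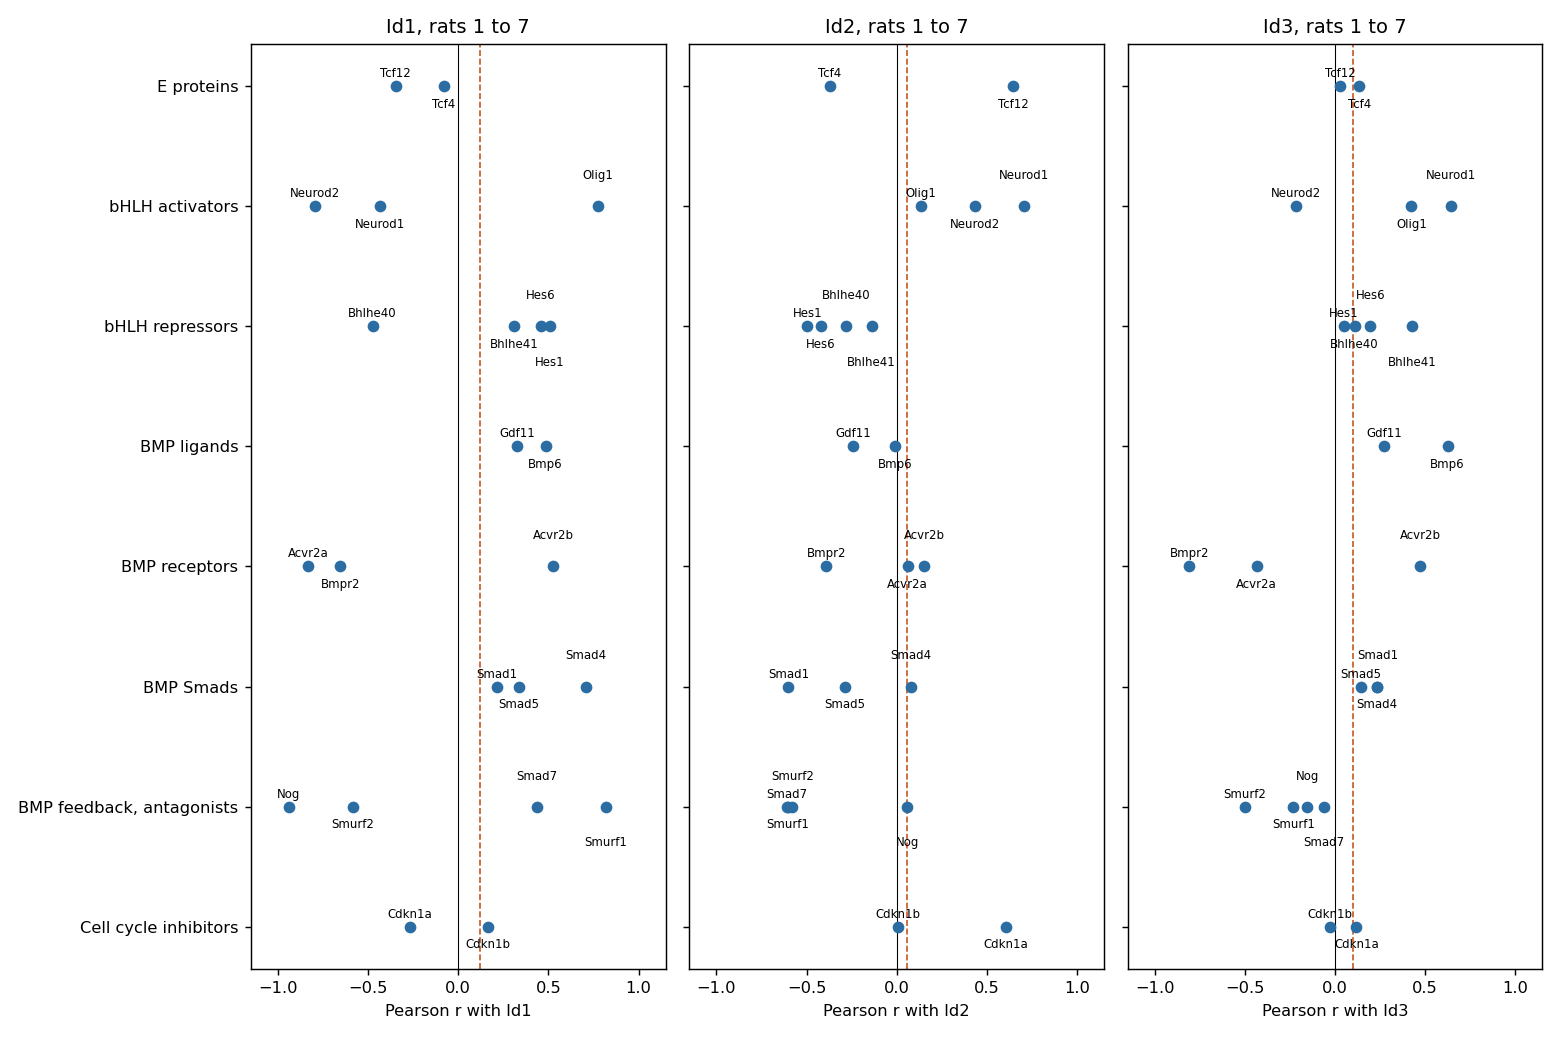
Pearson r of each listed gene kept (1 named point each) with Id1, Id2 and Id3 over rats 1 to 7, by list (y axis). The solid line marks 0 and the dashed line the median r over all 6767 genes. Nog at -0.941 is the lowest point for Id1. Smad7, Smurf1 and Smurf2 lie near -0.6 for Id2 (first probe set), where Smad7 ran only from 4.46 to 4.63.

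Tissue pieces can differ in their cell makeup, and in bulk RNA fewer cells of a type and less RNA per cell cannot be told apart. The mean log2 level of each marker list over the rats is therefore set beside the Id genes, and its part in the results was not tested. Every r with Id2 here is that of its first probe set, whose match to Id2 was not checked, and the second was not set beside the markers. The 8 endothelial markers kept of 19, with Pecam1 and Tie1 under the filter, had a mean level of 5.84 to 6.43. This level had r = 0.548 with Id2 and 0.536 with Id3, and -0.163 with Id1. The 4 pericyte and smooth muscle markers kept of 10, with Rgs5 under the filter, ran from 4.74 to 5.11. Their mean level had r = 0.653 with Id2 and 0.614 with Id3. Vtn, 1 of the 4 and already named as near to Id3, had 0.937 with Id3. Pdgfrb, Abcc9 and Acta2 had 0.197, 0.457 and 0.186. The median of the 4 was 0.327, against 0.178 over all genes.

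The 12 astrocyte markers kept of 14 ran from 9.34 to 9.75, with r = 0.576 with Id2, 0.711 with Id3 and 0.219 with Id1. The 11 neuron markers kept of 12 ran from 10.32 to 10.71 and had r = -0.764 with Id2 and -0.490 with Id3. Without rats 8 and 9 the r of the astrocyte level was 0.725 with Id2 and 0.722 with Id3, and that of the neuron level -0.717 and -0.490. The astrocyte genes mostly shared this direction, with 10 of 12 at a positive r over 9 rats with Id2 and 10 of 12 with Id3. The neuron genes were mixed over 9 rats: 5 of 11 had a positive r with Id2 (median -0.028) and 4 of 11 with Id3 (median -0.158). The medians over all genes were 0.151 and 0.178. Over rats 1 to 7 more neuron genes were negative, with 3 of 11 positive with Id2 (median -0.440) and 2 of 11 with Id3 (median -0.197). The medians over all genes were then 0.057 and 0.101. Over 9 rats Gad2, which ran from 3.15 to 6.20, and Slc17a7 had r of -0.516 and -0.692 with Id2.

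The 8 microglia markers kept had r = 0.549 with Id2 and 0.521 with Id3, at levels of 5.73 to 6.31. The 7 meninges and fibroblast markers kept of 10 ran from 4.61 to 6.18 and had r = 0.592 with Id3 and 0.054 with Id2. With Id3, 6 of the 7 had a positive r (median 0.464, against 0.178 over all genes). Fmod had 0.882 and Col3a1 0.762, while Dcn had -0.098. On the plus maze all 7 had a positive slope, against 61.8% of all genes, with a median of 0.27 against 0.016 log2 units per SD. The part of these markers in the relation of Id3 with the plus maze was not tested. The 2 red blood cell markers kept ran from 6.62 to 8.09 and had r = 0.749 with Id1 over 9 rats but 0.038 over rats 1 to 7. With Id2 and Id3 their level had r = 0.001 and 0.197 over 9 rats but 0.604 and 0.628 over rats 1 to 7. The 7 oligodendrocyte markers kept ran from 8.71 to 9.39 and had r = 0.469 with Id1 and 0.482 over rats 1 to 7. Of the choroid plexus markers Ttr was under the filter and only Folr1 was kept, at 3.41 to 3.54. The mean level of the 2 olfactory bulb and striatal markers kept ran from 5.15 to 5.76. It had r = -0.540 with Id3 over 9 rats and -0.782 over rats 1 to 7, and -0.387 with Id2 and 0.415 with Id1 over 9 rats.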

How the data were processed

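Total RNA of prefrontal cortex from 9 rats was measured with 1 array per rat. The authors deposited log2 values, 1 per probe set and array. The submitters' processing notes name GCRMA and R 2.6.2 for this. The GCRMA method removes background estimated from probe sequence, brings the arrays to a common distribution and reduces the probes of each set to 1 value; the settings used were not given in the sources. For 47.0% of the probe sets kept, 2 or more arrays held an identical value, so small differences are not well resolved. The number of arrays limits the precision. Between genes, levels are used only to filter probe sets and to pick 1 per gene.

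Of 15923 probe sets, 57 controls and then the lowest 40% of 15866 by mean were left out. The platform annotation gave 12783 probe sets 1 symbol, and no probe set of the Id genes had several. Slopes per SD of each behaviour over the 9 rats came from limma 3.58.1 under R 4.3.3 (7 residual degrees of freedom), two-sided, with Benjamini-Hochberg adjustment over 9520 probe sets at 0.05, and it was tested on simulated data. Relations of the members with startle and the plus maze carry no test. Correlations between Id genes were tested by exact permutation, two-sided, from 362880 orders of the rats (5040 for 7 rats), with adjustment over 6 pairs, using for each gene the probe set of highest mean, under Python 3.11.15 with scipy 1.17.1, numpy 2.4.6, pandas 2.3.3 and, for figures, matplotlib 3.10.9.

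Named genes were all members, the 5 genes of highest and 3 of lowest r with each member (1 probe set per gene, no symbols beginning with LOC, RGD, MGC or AABR), and up to 4 genes per list by smallest limma p or largest r. The members and lists were chosen with earlier results of these data known. The alternatives tried were a filter at 70% or none, quantile normalization again, trend and robust moderation, ranks, array weights, the other 3 behaviours as covariates, a term for or omission of rats 8 and 9, 1 probe set per gene, the other probe set of Id2 or Id4, and leaving out each rat.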

Additional observations from a re-analysis of the deposited data

Results flagged for a closer look

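Of 29 measures examined for a rat far from the rest, which were the 6 Id probe sets, the mean levels of 19 marker and pathway lists and the 4 behaviours, 3 list levels stood out, and chance flags about 1 in 20. No Id probe set or behaviour did. The check divided the gap between the most extreme rat and the next by the range of all rats. It can miss rats that are extreme together, so no conclusion is drawn for such measures. The plus maze had a ratio of 0 at the top, because its highest value, 18.7, was shared. The first Id4 probe set had a ratio of 0.179 at the top, with rats 8 and 9 at 3.75 and 3.57. The mean log2 level of the tissue-restricted bHLH activators was 5.51 in rat 9 against 5.33 in the next rat, and Neurod2 had 4.81 in that rat against 3.94 to 4.08 in the others. The mean level of the bHLH repressors was lowest in rat 1, at 5.73 against 6.02 in the next rat. The mean level of the BMP feedback genes and antagonists was highest in rat 7, at 5.65 against 5.50, and Nog was highest in that rat at 7.10.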

How the results depend on the processing

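The correlation of Id1 with Id4 depended on the arrays of rats 8 and 9. Over all 9 rats Id1 with Id4 had r = 0.859 (exact permutation p = 0.0077, adjusted p = 0.046 over 6 pairs) but rho was 0.467, r was -0.055 without rats 8 and 9 (also the 2 rats farthest from the median) and -0.386 with the other Id4 probe set, and 0.652 to 0.912 when each rat was left out, past the adjusted threshold for 2 of the 9. Id1 with Id3, -0.092 over all, had rho 0.017 and r 0.270 without rats 8 and 9, and -0.326 to 0.077 when each rat was left out. Id2 with Id4, -0.356, became 0.011 without rats 8 and 9, 0.141 with the other Id2 probe set and 0.640 with the other Id4 probe set. Id3 with Id4, -0.290, had rho 0.075 and became 0.231 without rats 8 and 9 and 0.291 with the other Id4 probe set. Leaving out each rat gave -0.802 to -0.270 for Id1 with Id2, past the adjusted threshold only without rat 7. It gave 0.344 to 0.665 for Id2 with Id3. It also gave -0.524 to -0.154 for Id2 with Id4 and -0.415 to -0.094 for Id3 with Id4. With the other Id2 probe set Id1 with Id2 was -0.155. The cause of these changes was not tested.

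Limma called 1 probe set for startle with no filter and 1 with 1 probe set per gene, in place of 0 (1260 at an unadjusted p under 0.05), and neither was an Id gene. Slopes on locomotion changed sign for Id1 to -0.0081 with a term for rats 8 and 9 and -0.070 without them, for the first Id2 probe set to -0.013 with ranks and -0.011 with array weights, and for the second to -0.013 with array weights. On sugar feeding the first Id2 probe set took 0.0064 with quantile normalization, 0.026 with ranks, 0.067 with the other behaviours, 0.023 with a term for rats 8 and 9 and 0.038 without them, and Id3 took 0.067 with the other behaviours. Leaving out each rat gave locomotion slopes of -0.044 to 0.672 for Id1, -0.148 to 0.107 and -0.023 to 0.064 for the first and second Id2 probe sets and -0.092 to 0.027 for Id3, and sugar feeding slopes of 0.023 to 0.693 for Id1, -0.059 to 0.061 and -0.104 to 0.035 for Id2 and -0.186 to 0.023 for Id3. The highest slopes of Id1 came without rat 1 (locomotion) and rat 4 (sugar feeding), and its lowest came without rat 8 for both. No slope passed the adjusted threshold in any setting. No paired analysis was possible because the labels define 1 group.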
